A study of Mus musculus with 14 samples.

Results

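Cells sorted from the subependymal zone (SEZ), the neurogenic layer lining the lateral ventricle, were compared as a whole with cells sorted from the diencephalon of the same mouse line. The comparison asks which genes differ between the 2 brain regions whatever surface marker or reporter was used for the SEZ sort. All 14 arrays of the series enter it. The animals were 8-week-old hGFAP-eGFP mice, in which a human GFAP promoter drives enhanced green fluorescent protein (GFP), so that astrocytes and astrocyte-like stem cells can be sorted by fluorescence. From the SEZ, 4 arrays hold cells gated on both GFP and prominin (SEZ_GFPprom), and 2 arrays each hold cells gated on GFP (SEZ_GFP), on prominin (SEZ_Prom) or on CD24 (SEZ_CD24). A further 4 arrays hold diencephalic cells gated on GFP (DIEC_GFP). By its labels the diencephalic group is astrocytes, SEZ_CD24 is ependymal cells, and the remaining SEZ groups are neural stem cells. The arrays of a group are labelled biological replicates, with no statement that separate animals were used, so each p-value rests on how far arrays of a group scatter, which may be technical in part.

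Each of 18193 genes was represented by its brightest probe set on Affymetrix mouse genome arrays. For each gene the mean log2 intensity of every SEZ sort was taken, the 4 sort means were averaged with equal weight, and the DIEC_GFP mean was subtracted. A positive difference therefore means a higher level in the SEZ. A gene was called when the p of limma's moderated test, adjusted by the Benjamini-Hochberg method over all genes, was under 0.05, and the genes described are those called whose 4 sort means all lay on the same side of the DIEC_GFP mean. There were 2663 of them. Only SEZ_GFP was sorted by the gate used in the diencephalon, so for the other sorts region and gate cannot be told apart. All 4 sorts are set against the same 4 DIEC_GFP arrays, so a shared sign is a count and not independent evidence.

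The adult SEZ holds GFAP-positive stem cells that give rise to fast-dividing progenitors and then to neuroblasts, which migrate to the olfactory bulb and become interneurons. Distal-less (Dlx) homeobox factors mark this ventral telencephalic lineage. The zone lies against the striatum, whose main cells are GABAergic projection neurons, and against the ependymal lining of the ventricle. The diencephalon, which forms the thalamus and hypothalamus, is patterned in the embryo by other homeobox factors, among them the Iroquois (Irx) family, and in the adult most of its GFAP-expressing cells are non-dividing astrocytes.

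The defining markers were checked before the comparison. Aqp4, the water channel of astrocyte endfeet, had a mean log2 intensity of 10.35 ± 0.52 (SD, n = 4) in DIEC_GFP, above the mean of every SEZ sort. Foxj1, the master regulator of ependymal motile cilia, averaged 5.81 ± 0.32 (n = 2) in SEZ_CD24, below the 7.65 ± 0.44 of DIEC_GFP, and was at 9.71 ± 0.40 (n = 4) in SEZ_GFPprom. The label ependymal cells of SEZ_CD24 thus goes against Foxj1, and the sort is called by its gate here. Mbp, the gene of myelin basic protein, averaged 13.48 ± 0.11 (n = 4) in DIEC_GFP and 13.44 ± 0.05 (n = 2) in SEZ_Prom. The mean over 17 oligodendrocyte markers was 10.37 in DIEC_GFP and 10.16 in SEZ_Prom, and 6.81 to 8.32 in the other sorts. Myelin RNA was thus present in both groups, beyond their labels of astrocytes and neural stem cells. Over all genes, arrays within a group had correlations of r = 0.942 to 0.979 and SEZ with DIEC_GFP arrays of r = 0.845 to 0.933. DIEC_GFP replicate 4 stood apart from the other 3 arrays of its group. Its mean over 13 mature neuron markers was 4.80 against 6.84 to 7.27 in the others, its mean over 39 astrocyte markers 9.66 against 10.65 to 10.72, and its mean over 29 mitosis genes 5.27 against 4.03 to 4.76. The 2 SEZ_CD24 arrays had the highest SEZ means of 19 microglia markers, 9.19 and 7.66, and of 4 erythrocyte markers, 7.14 and 6.12. The log2 signal ratio of the 3' to the 5' probe sets of control transcripts, which rises with shortened RNA or labelling products, was 5.40 ± 0.29 (n = 4) in DIEC_GFP and averaged 4.63 to 5.15 in the SEZ sorts.

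Of the 18193 genes, 3156 (17.3%) differed between the SEZ sorts and DIEC_GFP, 1411 (7.76%) higher and 1745 (9.59%) lower in the SEZ. At least a 2-fold difference was present in 857 of the higher and 1238 of the lower genes. The same sign in all 4 sorts was shared by 1263 higher genes (6.94% of all tested) and 1400 lower genes (7.70%), together 84.4% of those called. For comparison, 41.6% of all genes tested had the same sign in all 4 sorts. The 10 SEZ arrays lay wholly above the 4 DIEC_GFP arrays in 424 genes (2.33%) and wholly below in 453 (2.49%). These counts together were 877, and leaving out an array can only keep or raise them. Without DIEC_GFP replicate 1, 2, 3 or 4 they were 1130, 1009, 1154 and 1410. When the 3' to 5' ratio was added to the fit as a covariate, 1665 genes were called, among them 598 of the 1263 higher and 580 of the 1400 lower genes. Where a gene list below has no called member in a direction, at most 3 of its members had the same sign and an unadjusted p under 0.05 in that direction. Counts of list members are to be read beside the shares of all genes given here. In sorted bulk RNA a lower level can mean fewer cells of a type or less RNA per cell, and these cannot be told apart.

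The genes that separated the regions furthest in every sort are named first. They were taken only from called genes with a shared sign whose SEZ and DIEC_GFP arrays did not overlap. By the smallest of the 4 sort differences, the 14 leading higher genes were Dlx1, Bcl11b, Cdca5, Meis2, Cdk1, Lzts1, Pclaf, Ddn, Nusap1, Mki67, Sox11, Dlx1as, Top2a and Rrm2. The 14 leading lower genes were Igsf1, Etnppl, Agt, Adcy8, Lrig1, Col23a1, Itih3, Gjb6, Tmem255a, Chl1, Atp13a4, Lrp1b, Slc6a11 and Ntrk3. Igsf1, an immunoglobulin superfamily membrane protein, stood at log2 intensities of 10.07, 10.31, 10.46 and 9.13 on the DIEC_GFP arrays. On the 10 SEZ arrays its lowest, median and highest values were 3.91, 4.75 and 5.93, so that more than 3 log2 units separated the closest arrays. The difference was -5.37 (SE 0.26, a 41.3-fold lower level, limma adjusted p = 7.91e-07).

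**Figure D1:**
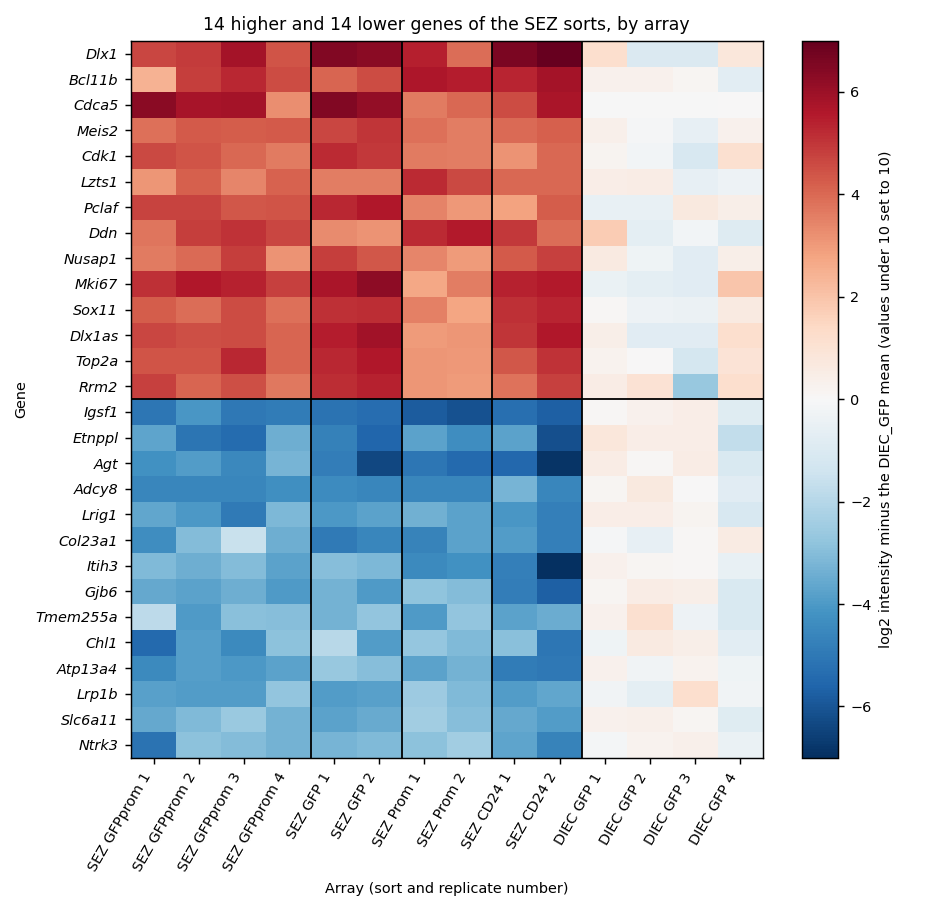
Log2 intensity of the 14 leading higher and 14 leading lower genes on each of the 14 arrays, as a difference from the DIEC_GFP mean of that gene, with values under 10 set to 10 (red higher, blue lower; rows are genes, columns are arrays grouped by sort). Every SEZ array is red in the upper block and blue in the lower block, while the DIEC_GFP arrays scatter around 0, with Mki67 above and Etnppl below it on replicate 4. The genes were chosen without overlap of arrays, so the SEZ colours follow from the choice. The scatter around 0 follows from the subtracted mean.

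Dlx1 and Meis2, homeobox factors of ventral telencephalic progenitors and their interneuron progeny, were at the head of the higher genes. Dlx1 was at 5.49, 3.32, 2.81 and 5.13 in DIEC_GFP and between 8.21 and 11.96 in the SEZ, with a median of 9.95. The difference was 5.91 (SE 0.51, adjusted p = 3.21e-05). Meis2 had DIEC_GFP values of 6.88, 6.48, 6.0 and 6.86 and SEZ values from 10.16 to 11.54 (median 10.78), an 18.4-fold difference with little scatter (4.20, SE 0.17, adjusted p = 4.95e-07). Neither gene's groups overlapped, as the choice of the leading genes required. Sox11, a factor of newborn neurons, lay at 6.38 to 7.41 in DIEC_GFP and at 9.53 to 12.08 in the SEZ (21.3-fold higher).

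The wider list of interneuron lineage transcription factors followed: 15 of 19 measured members were higher with the same sign, none lower, against 6.94% of all genes higher and 7.70% lower. Its median difference was 2.17, compared with 0.04 over all genes. Dlx2 was 10.7-fold and Dlx1as, an antisense RNA of the Dlx1 locus, 25.3-fold higher. Among 27 neuroblast markers 16 were higher in all sorts and none lower. Whether or not the sign was shared, 19 were called higher and 1 lower. Dcx, the microtubule protein of migrating neuroblasts, was at 6.67, 5.43, 5.64 and 6.61 on the DIEC_GFP arrays and at 7.62 to 12.46 on the SEZ arrays. Its sort means were 8.41 in SEZ_Prom, 9.94 in SEZ_GFPprom, 11.73 in SEZ_GFP and 11.98 in SEZ_CD24, so the difference of 4.43 (SE 0.33, adjusted p = 1.52e-05) was carried unevenly. Ccnd2, the D cyclin of neural progenitors, was 8.27-fold higher and Igfbpl1, a secreted neuroblast marker, 6.72-fold higher, and both had their lowest SEZ mean in SEZ_Prom.

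Genes of cell division were higher in the SEZ almost throughout. Of 29 mitosis genes 28 were higher with the same sign and none lower, against 6.94% higher and 7.70% lower among all genes. In 26 of the 29 the arrays of the regions did not overlap, against 2.33% of all genes with every SEZ array higher. The median difference was 3.39, with sort medians of 2.24 in SEZ_Prom, 3.25 in SEZ_GFPprom, 3.37 in SEZ_CD24 and 4.16 in SEZ_GFP. Nuf2, a kinetochore subunit, was the exception. It was called lower over the 4 sorts together, with a positive difference only in SEZ_GFPprom. Of 26 DNA replication genes 24 were higher and none lower (median 1.90), and of 18 chromatin and DNA methylation genes 10 were higher and none lower (median 0.95). DIEC_GFP replicate 4 had the highest mean of its group over the mitosis genes, 5.27, and this was still below the lowest SEZ array, 6.53.

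The promoters of 4 of these genes are shown because they hold sequence elements that are known from cell cycle genes. The sequences are the 120 bases before the transcription start, 5' to 3' on the gene's strand, from RefSeq on GRCm38.p6. Capitals mark the CCAAT box (CCAAT, or ATTGG on the other strand), the cell cycle homology region (TTTGAA, or TTCAAA) and an E2F sequence (TTTGGCGC, or GCGCCAAA), which do not overlap one another here. Ube2c, the ubiquitin-conjugating enzyme of the anaphase-promoting complex, lies at chr2:164769809-164769928 (plus strand), Cdk1, the mitotic kinase, at chr10:69352913-69353032 (minus strand), Top2a, the DNA topoisomerase of dividing cells, at chr11:99024190-99024309 (minus strand), and Mcm6, a subunit of the replicative helicase, at chr1:128359706-128359825 (minus strand).
Ube2c: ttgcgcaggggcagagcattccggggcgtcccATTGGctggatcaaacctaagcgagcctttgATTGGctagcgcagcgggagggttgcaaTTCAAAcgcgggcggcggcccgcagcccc
Cdk1: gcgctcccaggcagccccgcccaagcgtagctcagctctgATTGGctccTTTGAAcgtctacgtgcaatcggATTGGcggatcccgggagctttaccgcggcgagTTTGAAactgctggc
Top2a: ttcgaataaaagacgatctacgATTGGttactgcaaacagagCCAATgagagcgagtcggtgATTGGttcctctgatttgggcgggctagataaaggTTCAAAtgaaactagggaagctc
Mcm6: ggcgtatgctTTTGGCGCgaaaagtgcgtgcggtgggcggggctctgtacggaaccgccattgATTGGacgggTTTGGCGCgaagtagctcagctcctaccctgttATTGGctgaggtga

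Over the 250 bases before the start and on both strands, a CCAAT box was found in 21 of 26 mitosis promoters (80.8%), in 13 of 22 DNA replication promoters (59.1%) and in 39.4% of the promoters of all genes tested. The cell cycle homology region was in 30.8% of mitosis, 13.6% of replication and 14.1% of all promoters. The E2F sequence was in 13.6% of replication promoters, in 0 of the 26 mitosis promoters and in 0.775% of all. The CCAAT box was not particular to the lists of higher genes, since it was also in 16 of 16 promoters of cholesterol synthesis genes, a list with lower members, in 8 of 13 promoters of interneuron lineage factors (61.5%) and in 44.1% of astrocyte marker promoters. The share of replication promoters with the cell cycle homology region was close to that of all genes. These are matches of letters and not binding sites. Of the 4 genes printed, Ube2c was at 4.17, 3.91, 5.09 and 5.13 in DIEC_GFP and at 7.07 to 9.58 in the SEZ (16.8-fold, SE 0.23 on the log2 scale, adjusted p = 3.22e-06). Mcm6 was at 4.81, 4.75, 5.13 and 5.04 in DIEC_GFP and at 7.12 to 9.80 in the SEZ (13.0-fold, adjusted p = 8.48e-07). Cdk1 and Top2a were 18.3-fold and 21.6-fold higher, and for all 4 genes every DIEC_GFP array was below every SEZ array. For Cdk1 and Top2a, which are leading genes, this was a condition of the choice. Mki67, the proliferation antigen, was at 4.81, 4.58, 4.46 and 7.24 in DIEC_GFP, highest on the array that stood apart, and at 7.97 to 11.51 in the SEZ (30.8-fold).

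Transcription factors that set regional identity differed in both directions. Of 21 telencephalic factors 8 were higher with the same sign and 1 was lower. Bcl11b, a zinc finger factor of striatal and cortical projection neurons, was at 5.46, 5.49, 5.29 and 4.46 in DIEC_GFP and at 7.59 to 11 in the SEZ (median 10.21, 30.7-fold, adjusted p = 3.33e-05). Foxp1, a forkhead factor of striatal neurons, was 9.80-fold higher and Foxp2, its relative, 5.17-fold higher. Vax1, a ventral forebrain homeobox factor, was 5.04-fold higher with means from 5.90 in SEZ_Prom to 9.0 in SEZ_CD24. The forebrain factors Lhx2 and Emx2 were 4.23-fold and 3.98-fold higher, and Six3 and Nr2e1, an orphan receptor of neural stem cells, 2.39-fold and 3.68-fold higher. Six3 and Nr2e1 lost their call with the 3' to 5' ratio as a covariate. Nr2f2, a caudal forebrain nuclear receptor, was the lower member, at -1.52 (SE 0.37, adjusted p = 0.0142). It lost its call with the same covariate and without DIEC_GFP replicate 1 (adjusted p = 0.0503).

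Of 42 diencephalic and caudal factors 14 were lower with the same sign and 1 was higher, and 6 were at an intensity of 10 or less on every array. Irx2 was at 6.52, 6.88, 5.98 and 6.02 in DIEC_GFP and at 3.70 to 4.86 in the SEZ, without overlap (-2.15, SE 0.18, a 4.45-fold lower level, adjusted p = 3.06e-05). Irx3 was 9.65-fold and Irx5 10.3-fold lower, with SEZ means of 3.58 to 4.02 for Irx3 in 3 sorts and 5.89 ± 1.35 (n = 4) in SEZ_GFPprom. On the SEZ_GFPprom arrays Irx5 was at 7.47, 7.59, 3.81 and 7.79, close to the 7.87 to 8.60 of DIEC_GFP on 3 arrays and far below it on replicate 3. Nkx6-2, a homeobox factor also expressed in oligodendrocytes, was 6.50-fold lower but at 7.75 in SEZ_Prom against 8.20 ± 0.48 in DIEC_GFP. Pax3, En2 and Foxa1, factors of the dorsal neural tube, midbrain and floor plate, were 1.99-fold, 2.72-fold and 2.86-fold lower, the last 2 with values under 10 set to 10. Foxa1 lost its call with the 3' to 5' ratio as a covariate (adjusted p = 0.0527). The other lower members were Irx1, Zic1, Otx2, Foxd1, Nkx6-1, Tcf7l2 and Otp, and each lost its call under at least 4 of the alternative settings, as did Zic5, the higher member. The count of 14 became 8 without DIEC_GFP replicate 2, 9 without replicate 1, 9 without the SEZ_GFP sort and 6 with the 3' to 5' ratio as a covariate.

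**Figure D2:**
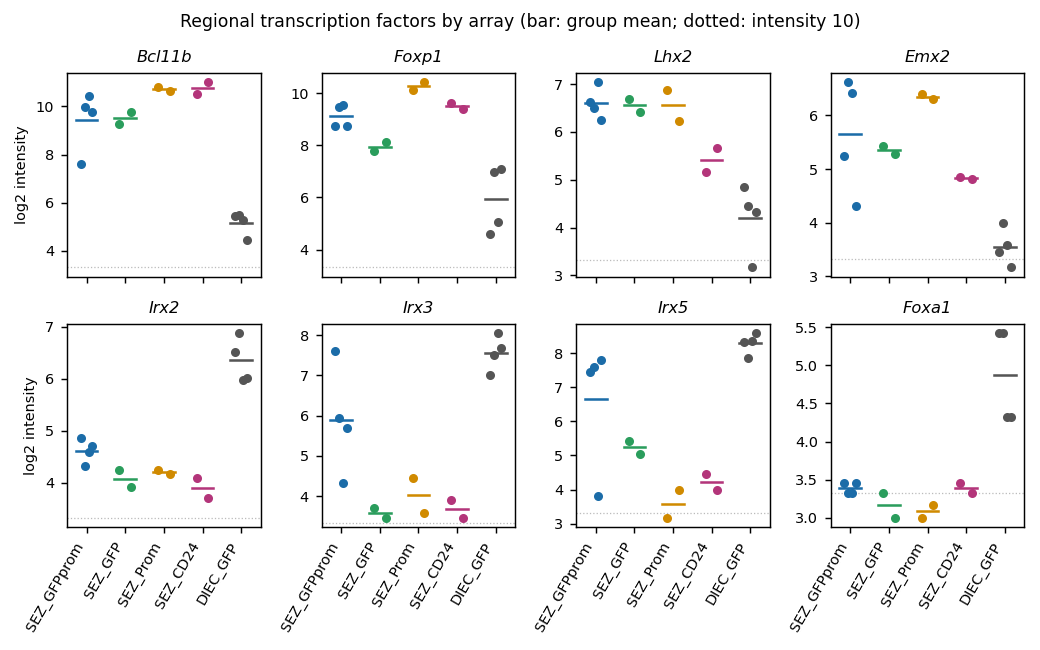
Log2 intensity of 4 telencephalic factors (Bcl11b, Foxp1, Lhx2, Emx2, upper row) and 4 diencephalic or caudal factors (Irx2, Irx3, Irx5, Foxa1, lower row) on each array, 1 point per array, with a bar at the group mean and a dotted line at an intensity of 10. Bcl11b, a leading gene and so chosen without overlap, separates the regions on every array, and Irx5 approaches the DIEC_GFP values on 3 of the 4 SEZ_GFPprom arrays.

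Genes of striatal projection neurons were also higher in the SEZ, with 12 of 19 measured members higher in all sorts and none lower (median 1.43). Among all genes 6.94% were higher and 7.70% lower in all sorts. The sort medians ran from 0.53 in SEZ_GFP to 2.75 in SEZ_Prom. Without the SEZ_Prom sort 10 members were higher and 2 lower in the remaining sorts (median 1.02). Without DIEC_GFP replicate 3 or replicate 4, 1 was lower. The higher count was 8 with the sorts pooled into 1 group and 9 with the 3' to 5' ratio as a covariate. Gng7, the G protein gamma subunit of dopamine receptor signalling in the striatum, was at 6.44, 5.73, 6.52 and 6.79 in DIEC_GFP and at 9.09 to 11.92 in the SEZ (16.7-fold, SE 0.32, adjusted p = 1.62e-05). Scn4b, a sodium channel beta subunit, was 26.1-fold higher, with DIEC_GFP values of 6.38, 4.32, 4.00 and 4.09 and SEZ values of 7.34 to 11.17. The phosphodiesterases Pde1b and Pde10a were 7.62-fold and 4.99-fold higher. Ddn, a postsynaptic protein of forebrain dendrites, and Lzts1, a postsynaptic scaffold protein, both among the 14 leading genes, were 21.3-fold and 16.6-fold higher. All of these had their highest mean in SEZ_Prom.

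Mature neuron markers had their highest mean in the same sort. It was 7.96 and 8.04 on the SEZ_Prom arrays, 6.04 to 7.17 on the SEZ_GFPprom arrays, 6.32 and 6.86 in SEZ_CD24, 5.80 and 5.83 in SEZ_GFP and 4.80 to 7.27 in DIEC_GFP. Of 13 members 2 were higher in all sorts and none lower, and the median difference was 0.23. Without DIEC_GFP replicate 4 it was -0.50, with 1 member higher and 2 lower, and without the SEZ_Prom sort -0.19, with 1 higher and 1 lower. Camk2a, a kinase of forebrain excitatory and striatal neurons, was 11.5-fold higher, at 8.44, 7.27, 7.46 and 5.55 in DIEC_GFP and 9.07 to 12.45 in the SEZ. Of 22 thalamic and hypothalamic neuron genes none was higher and 2 were lower, the latter near the 7.70% lower among all genes. The part of neurons in the striatal difference was not tested.

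Most astrocyte markers were lower in the SEZ. Of 39 members 28 were lower with the same sign and none was higher, against 7.70% lower among all genes. In 19 members the arrays of the regions did not overlap, against 2.49% of all genes with every SEZ array lower. The median difference was -1.68, and it was -1.15 to -1.38 in SEZ_GFPprom, SEZ_GFP and SEZ_Prom and -2.63 in SEZ_CD24. The count of lower members with the same sign was 23 to 31 when single arrays were left out. It was 19 with the 3' to 5' ratio as a covariate and 18 with the sorts pooled into 1 group. Agt, angiotensinogen, which astrocytes secrete, was at 11.61, 11.19, 11.61 and 10.02 in DIEC_GFP and at 4.25 to 7.84 in the SEZ (-5.26, SE 0.39, a 38.2-fold lower level, adjusted p = 1.40e-05). Itih3, an inter-alpha-trypsin inhibitor chain, was at 13.22, 13.08, 12.99 and 12.42 against 5.95 to 9.96 (17.8-fold lower). Neither overlapped, as the choice of the leading genes required, and for both the SEZ_CD24 mean was the lowest. Gjb6, the astrocyte gap junction protein connexin 30, was 14.8-fold lower and Slc6a11, the astrocyte GABA transporter GAT3, 9.90-fold lower. Etnppl, an enzyme listed among the astrocyte markers, was 24.7-fold lower.

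Lower genes outside the marker list included membrane proteins and signalling molecules. Adcy8, a calcium-stimulated adenylate cyclase, was at 8.01, 8.54, 7.89 and 7.06 in DIEC_GFP, while SEZ values of 2.81 to 4.64 were at or near background, so its difference with values under 10 set to 10 was -4.35 (20.4-fold). Atp13a4, a P5-type transport ATPase, was 14.2-fold lower (SE 0.18), Col23a1, a transmembrane collagen, 17.4-fold lower, and Ntrk3, the receptor of neurotrophin-3, 10.5-fold lower. Chl1, a cell adhesion molecule of the L1 family, was 11.2-fold and Lrp1b, a lipoprotein receptor, 11.4-fold lower, the latter with values under 10 set to 10. Of the leading lower genes, Lrig1 and Tmem255a rest on probe sets whose sequence is shared between transcripts. Without such probe sets Lrig1 was at 0.10 (adjusted p = 0.753) and Tmem255a at -0.03 (adjusted p = 0.937).

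The oligodendrocyte lineage was lower as well, with a different balance among the sorts. Of 15 progenitor markers 12 were lower with the same sign and none higher (median -2.16). Gpr17, a receptor of committed progenitors, was at 11.36, 10.97, 11.01 and 10.34 in DIEC_GFP and at 4.25 to 8.69 in the SEZ (11.5-fold lower, adjusted p = 0.000258), and Cspg4, the NG2 proteoglycan, was 6.30-fold lower with its highest SEZ mean, 8.30, in SEZ_GFP. Of 17 mature oligodendrocyte markers 11 were lower with the same sign and none higher (median -2.33). The sort medians were -0.06 in SEZ_Prom, -2.13 in SEZ_GFPprom, -3.40 in SEZ_GFP and -4.07 in SEZ_CD24. Ugt8a, which makes the myelin lipid galactosylceramide, had an SEZ_Prom mean of 11.76 beside 12.30 ± 0.70 in DIEC_GFP, and 7.47 to 9.43 in the other sorts. Klk6, an oligodendrocyte protease, was lower on every SEZ array, at 4.95 to 8.54 against 9.94 to 10.91 (16.1-fold). Without DIEC_GFP replicate 4 the count of mature markers fell to 7.

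**Figure D3:**
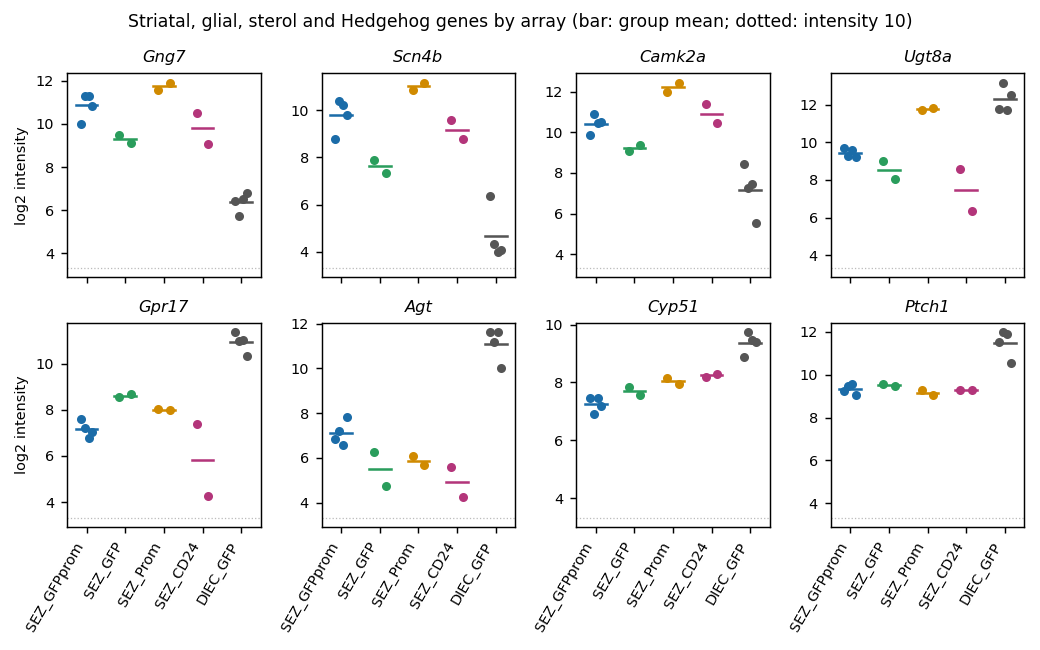
Log2 intensity of striatal and neuronal genes (Gng7, Scn4b, Camk2a), glial genes (Ugt8a, Gpr17, Agt), Cyp51 of sterol synthesis and the Hedgehog receptor Ptch1 on each array, 1 point per array, with a bar at the group mean and a dotted line at an intensity of 10. Ptch1, among the lower genes chosen as most even over the sorts, is at nearly the same level in all 4 SEZ sorts. Ugt8a is the gene of the 8 that does not separate the regions, as its SEZ_Prom arrays lie within the DIEC_GFP range.

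Several metabolic lists had members lower in all sorts and none higher. Of 20 cholesterol synthesis genes 12 were lower in all sorts and none higher, with a median of -1.02 and sort medians from -0.77 to -1.21. Cyp51, the sterol demethylase, was at 8.89, 9.73, 9.47 and 9.40 in DIEC_GFP and at 6.89 to 8.29 in the SEZ (2.96-fold lower, SE 0.17, adjusted p = 0.000105). Nsdhl, a later enzyme of the pathway, was 2.64-fold lower, and Msmo1, the sterol oxidase, 5.08-fold lower, although without shared-sequence probe sets Msmo1 was at -0.40 (adjusted p = 0.684). Of 22 fatty acid oxidation and activation genes 8 were lower, among them the acyl-CoA synthetase Acsl3 (3.02-fold) and the mitochondrial enzymes Cpt2 (2.40-fold) and Hadh (2.09-fold). Of 16 glycolysis and lactate genes 7 were lower, led by the lactate transporter Slc16a1 (5.95-fold), and 3 to 10 were lower when single arrays were left out. The count was 3 without DIEC_GFP replicate 1 or replicate 3, and 4 without replicate 2 of SEZ_GFP or of SEZ_Prom. With the 3' to 5' ratio as a covariate the lower counts were 5 for cholesterol, 3 for fatty acid and 1 for glycolysis genes.

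Ribosomal protein genes went the other way. Of 25 members 15 were higher with the same sign and none lower (median 0.89), with Rpl35 3.32-fold and Rpl22 2.44-fold higher. The count was 8 without DIEC_GFP replicate 2, 9 without replicate 4, 5 without the SEZ_GFPprom sort, 7 of the 14 members left when shared-sequence probe sets were dropped, and 5 with the 3' to 5' covariate.

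Signalling pathways held members in both directions, to be read beside 6.94% higher and 7.70% lower among all genes. Ptch1, the Hedgehog receptor and a transcriptional target of the pathway, was at 11.54, 11.98, 11.90 and 10.57 in DIEC_GFP and within 9.05 to 9.56 on all 10 SEZ arrays (4.52-fold lower, SE 0.23, adjusted p = 9.20e-05). Ptch1 was also among the lower genes chosen as most even over the sorts, so the narrow range is no separate result. Cdon, a Hedgehog co-receptor, was 3.12-fold higher and lost its call with the 3' to 5' covariate, and 3 of 14 Hedgehog genes were lower in all. Of 22 Notch pathway genes 5 were higher and 6 lower. Mfng, a glycosyltransferase that modifies Notch, and Hes6, an antagonist of Hes1, were 4.28-fold and 4.38-fold higher, whereas the Notch effectors Hes1 and Heyl were 3.74-fold and 5.91-fold lower. Of 24 BMP pathway genes 2 were higher and 2 lower, near those shares. Bmper, a secreted BMP modulator, was 7.65-fold higher with values under 10 set to 10, and the ligand Bmp4 was 5.17-fold lower. Of 30 Wnt genes 3 were higher and 3 lower, also near them, with the secreted proteins Dkk3 4.12-fold higher and Sfrp5 4.51-fold lower. Fgfr3, an FGF receptor of astrocytes, was 4.51-fold lower.

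Of 29 stem cell and radial glia genes 5 were higher and 5 lower in all sorts (median 0.04). Thbs4, a thrombospondin of SEZ astrocytes, was at 4.0, 3.46, 3.81 and 4.75 in DIEC_GFP and at 5.83 to 10.24 in the SEZ (19.6-fold, adjusted p = 6.98e-06). Its sort means descended from 10 in SEZ_GFPprom over 9.07 in SEZ_GFP and 7.77 in SEZ_Prom to 6.36 in SEZ_CD24. Aspm, a spindle protein of dividing neural progenitors, was 13.8-fold higher. Of the genes tied to the gates, Cd24a was 2.11-fold higher (adjusted p = 0.0177) with a lower mean in SEZ_Prom, 8.65, than in DIEC_GFP, 9.20. It lost its call without the SEZ_CD24 sort (0.68, adjusted p = 0.135), without the SEZ_GFP sort and without the SEZ_GFPprom sort. The call was also lost without DIEC_GFP replicate 1 (adjusted p = 0.0592) and without replicate 4 (adjusted p = 0.0577). Pooling the sorts, the replicate block and the 3' to 5' covariate removed it as well. Prom1, the gene of prominin, differed by 0.14 (SE 0.32, adjusted p = 0.824). Gfap, whose human promoter drives the reporter, was at -1.27 (adjusted p = 0.0473), with a mean of 8.65 ± 1.11 (n = 4) in SEZ_GFPprom and 8.55 ± 0.48 (n = 4) in DIEC_GFP, and it lost its call in 18 of 32 settings.

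The lists of several other cell types did not share a sign over the sorts. Ependymal markers had 14 of 21 members called lower, yet none with the same sign, because their median was 1.46 in SEZ_GFPprom and -2.08 to -2.84 in the other sorts. Of 53 motile cilium genes 34 were called lower and 1 with the same sign. None of 19 microglia markers was called by limma and 1 was lower at an unadjusted p under 0.05, with sort medians from -1.92 in SEZ_GFP to 1.57 in SEZ_CD24. Of 12 choroid plexus markers 3 were higher in all sorts and 1 lower, with medians of 2.11 in SEZ_Prom and -0.05 in SEZ_GFP, and 1 was higher without SEZ_GFP replicate 1. Of 15 endothelial, 13 mural and 13 meningeal markers 1, 3 and 3 were lower and none higher. These counts are to be read beside 6.94% higher and 7.70% lower among all genes, and the endothelial count is near the latter. The mural count was 1 of the 11 members left without shared-sequence probe sets, and 3 with the sorts pooled into 1 group. The meningeal count was 0 with the sorts pooled and 1 with the 3' to 5' ratio as a covariate.

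**Figure D4:**
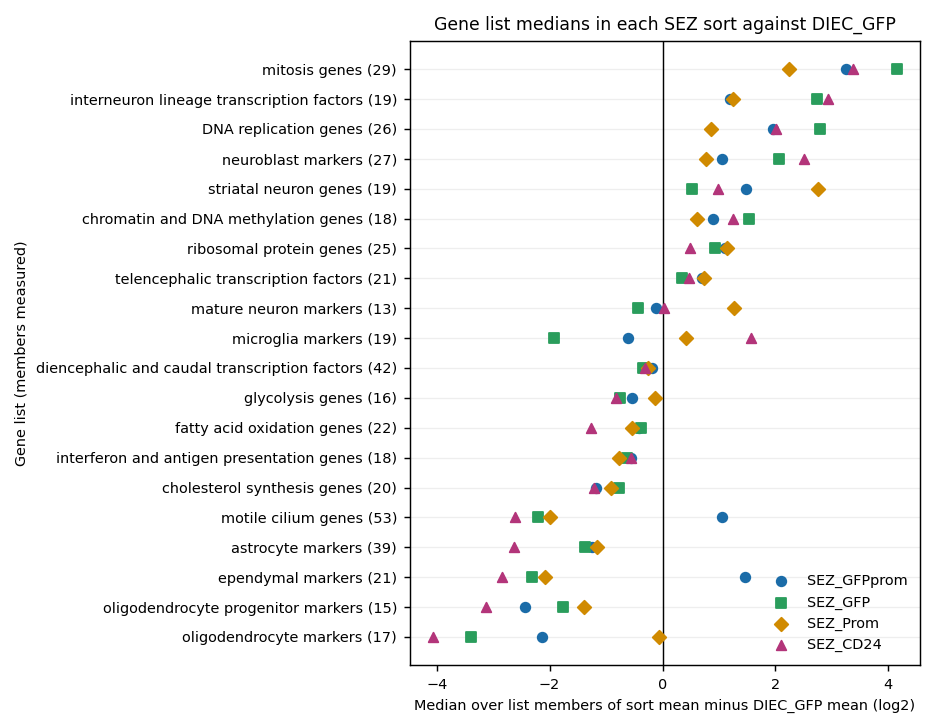
Median difference from DIEC_GFP (log2) over the measured members of 20 gene lists in each of the 4 SEZ sorts, with the number of members in brackets. The medians of cholesterol synthesis genes lie between -0.77 and -1.21 in all 4 sorts, those of astrocyte markers are lowest in SEZ_CD24, those of ependymal markers and motile cilium genes are above 0 in SEZ_GFPprom alone, and that of oligodendrocyte markers is near 0 in SEZ_Prom.

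How evenly the sorts carried the difference was described with a moderated F test among the 4 SEZ means. Of all genes tested 2885 (15.9%) differed among the sorts. Of the 2663 genes with a shared sign 795 (29.9%) differed among them, and of the 493 called genes without one 463 (93.9%) did. The shared sign is read from the same 4 means that the F test compares, so the gap between these shares follows from the choice and is no result. SEZ_Prom was the sort nearest to DIEC_GFP in 634 of the 1263 higher and 738 of the 1400 lower genes. SEZ_CD24 was the farthest in 754 of the lower genes, and SEZ_GFP in 452 of the higher genes.

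Among genes without overlap that differed by at least 2 log2 units, the most even higher genes were Tln1, Ankrd6, Melk, Pdlim7 and Chd3. Tln1, the integrin adaptor talin, had sort means of 7.52 to 7.67 against 5.40 ± 0.99 (n = 4) in DIEC_GFP, and Melk, a kinase of dividing progenitors, 6.65 to 7.07 against 3.71 ± 0.42. The most even lower genes were Rspo3, Ndnf, Ptch1, Scel and Tlr3. Rspo3, a secreted activator of Wnt signalling, was 4.82-fold lower with values under 10 set to 10, and Tlr3, a receptor for double-stranded RNA, 4.84-fold lower. Tln1, Scel and Tlr3 lost their call with the 3' to 5' ratio as a covariate.

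The called genes without a shared sign were 148 higher and 345 lower. In 200 of the 345 SEZ_GFPprom alone was on the other side of DIEC_GFP, in 127 SEZ_Prom alone, and in 83 of the 148 it was SEZ_Prom alone. Tm4sf1, Rassf9 and Bbox1 were the lower examples of the first kind. Tm4sf1, a membrane protein listed here among the ependymal markers, had a mean of 10.26 in SEZ_GFPprom and 5.24 to 6.17 in the other sorts against 9.80 ± 0.53 in DIEC_GFP. Septin4, a cytoskeletal GTPase, was an example of the second kind, at 11.45 in SEZ_Prom against 11.29 ± 0.58 in DIEC_GFP and 6.75 to 8.48 elsewhere. On the higher side were Elavl2, Rsad2, Cemip2 and Haspin. Elavl2 (adjusted p = 0.0346) and Haspin (adjusted p = 0.0356) lost their calls in many settings, among them without any one of DIEC_GFP replicates 1, 2 and 4, and Elavl2 also with values under 10 set to 10 (adjusted p = 0.0618). Rsad2, the interferon-induced antiviral protein viperin, was at 12.25 in SEZ_CD24 against 6.23 to 7.64 in the other sorts, and without SEZ_CD24 its adjusted p was 0.148.

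**Figure D5:**
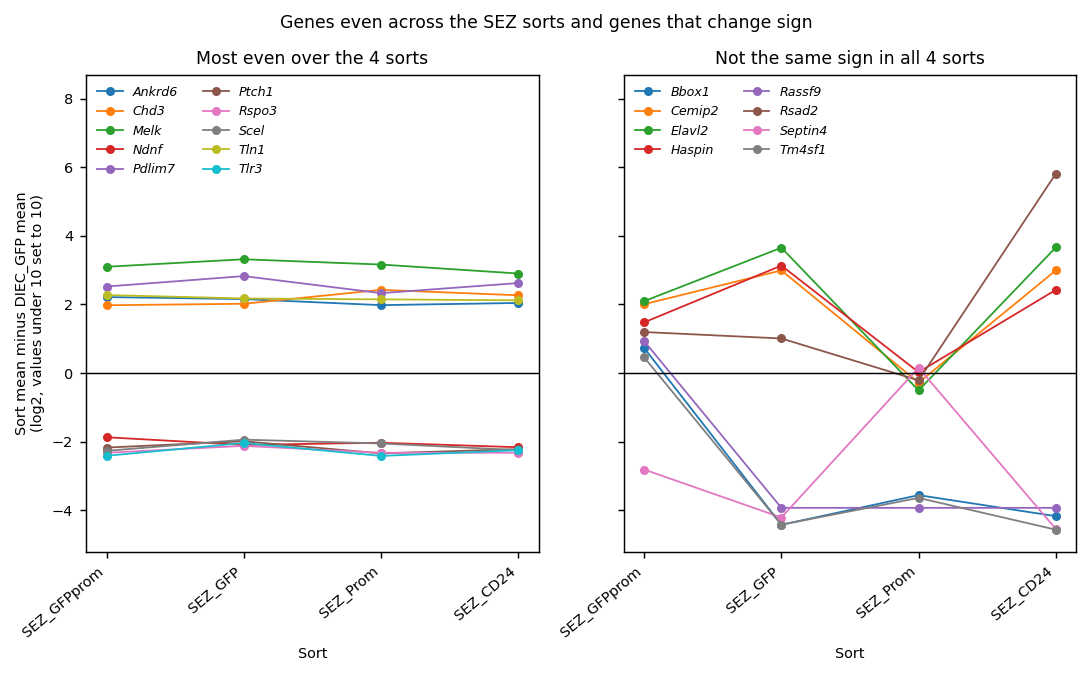
Difference of each SEZ sort mean from the DIEC_GFP mean (log2, values under 10 set to 10) for the 5 higher and 5 lower genes with the most even difference (left) and for 8 genes, called before that floor was set, whose sort means then lay on both sides of DIEC_GFP (right; Elavl2 is not called with the floor), 1 line per gene. The even genes stay near 2 to 3 or near -2 in all sorts, while Tm4sf1, Rassf9 and Bbox1 are above 0 only in SEZ_GFPprom and Septin4 only in SEZ_Prom.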

How the data were processed

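Per the labels' protocols, RNA from sorted cells was purified on columns with DNase digestion and went through a 2-cycle amplification with biotin labelling. The deposited values are linear intensity values made with RMA, per the submitters' processing notes, and the version is not given in the sources used here. The planned tests assumed log2 values, so the log2 of these intensities was taken without a pseudocount. Of 45101 probe sets, 34945 with 1 gene symbol were kept, 64 were controls, and 932 with several symbols and 9160 without one were not used. The brightest probe set stood for each gene. Between 25.4% and 25.7% of probe sets per array were at 10 or less, and where a group mean lay there, differences are given with values under 10 set to 10. The number of arrays limits the precision.

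The fit used limma 3.58.1 in R 4.3.3 (lmFit, contrasts.fit, eBayes, a mean per group, 9 residual and 2.627 prior degrees of freedom), with two-sided tests. In simulated data of 18193 genes, 67, 67 and 66 genes were changed by 1, 2 and 3 log2 units, alike in all 4 sorts. The simulated sorts did not differ otherwise, and the noise was normal and independent. The fit recovered 50.7%, 88.1% and 95.5% of the changed genes, and 5.45% of its calls were unchanged genes. The data held more called genes, and differences among the sorts, so these shares need not hold for them. Of 839 entries in 36 gene lists 64 were not matched and are not analysed here. The comparison, its members and the lists were chosen with earlier results of these data known. Named genes were the 14 in each direction with the largest smallest sort difference (without overlap, clone names passed over), up to 4 called members of each list by adjusted p, all called regional factors, the gate genes, the 5 most even in each direction and the 4 largest without a shared sign in each direction. A part of the list examples is printed, chosen after their values were seen. Of 103 named genes with several probe sets, 22 had a probe set in the other direction, among them Cdt1, Pclaf, Top2a, Foxp1, Camk2a, Chl1, Ntrk3, Heyl, Nr2f2, Six3, Tln1, Rspo3, Scel, Sfrp5, Fgfr3, Lrig1, Otp and Zic5. Alternatives covered normalization, filters on dim genes, the choice of probe set, pooling or weighting of sorts and arrays, a replicate block, the 3' to 5' ratio, and leaving out each sort and each array. Same-numbered arrays of different groups had residual correlations of -0.19 to 0.13, and differently numbered arrays of -0.19 to 0.19. In a group of 2 arrays the residuals mirror each other. These correlations therefore cannot decide whether the numbers pair the arrays.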

Additional observations from a re-analysis of the deposited data

Results flagged for a closer look

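For 13 of the 118 genes named, 1 array of SEZ_GFPprom or DIEC_GFP was far from the other 3 of its group, by more than Dixon's critical gap, in 13 of 236 groups of 4 arrays looked at. Chance marks about 1 in 20 groups in this way. All values are log2 intensities. DIEC_GFP replicate 1 had Scn4b at 6.38 beside 4.00 to 4.32. DIEC_GFP replicate 2 had Bmper at 4.46 beside 2.81 to 3.00 and Msmo1 at 11.24 beside 10.19 to 10.35. DIEC_GFP replicate 4 had Etnppl at 8.46 beside 10.64 to 10.95 and Mki67 at 7.24 beside 4.46 to 4.81. SEZ_GFPprom replicate 1 had Meis2 at 10.43 beside 10.81 to 10.84, Rxrg at 6.99 beside 7.98 to 8.17 and Vax1 at 6.15 beside 6.61 to 6.70. SEZ_GFPprom replicate 2 had Igsf1 at 5.93 beside 4.95 to 5.09 and Tln1 at 7.24 beside 7.79 to 7.86. SEZ_GFPprom replicate 3 had Irx5 at 3.81 beside 7.47 to 7.79. SEZ_GFPprom replicate 4 had Cdca5 at 6.60 beside 9.11 to 9.63 and Mcm6 at 8.26 beside 9.02 to 9.13.

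The levels of 46 of the 118 genes differed among the 4 SEZ sorts by the moderated F test of limma, adjusted over all genes, beside 15.9% of all genes tested. The 118 include gate genes and genes chosen for sort means on both sides of DIEC_GFP. Their share is therefore partly set by the choice and is no result. The 46 genes are given by the sort with the highest mean, each with its adjusted p. In SEZ_GFPprom these were Tm4sf1 (1.9e-05), Foxj1 (2.12e-05), Rassf9 (2.25e-05), Nuf2 (2.47e-05), Bbox1 (3.25e-05), Thbs4 (0.000717), Gfap (0.0104), Six3 (0.0212) and Aqp4 (0.0352). In SEZ_GFP these were Cspg4 (0.000486), Mcm6 (0.00256), Atp13a4 (0.0035), Ube2c (0.00672), Itih3 (0.0109), Dkk3 (0.0133), Mfng (0.0161), Ccnd2 (0.0169), Aspm (0.0203), Pclaf (0.0225), Dlx1as (0.0289), Hes6 (0.041) and Fgfr3 (0.0425). In SEZ_Prom these were Septin4 (0.000478), Hapln2 (0.00297), Pde10a (0.00467), Ugt8a (0.00534), Rxrg (0.00755), Pde1b (0.00834), Nkx6-2 (0.0097), Hadh (0.0121), Gng7 (0.024), Gjb6 (0.0245), Klk6 (0.0266), Scn4b (0.0349) and Ifit3 (0.0471). In SEZ_CD24 these were Igfbpl1 (0.000111), Rsad2 (0.000156), Vax1 (0.000226), Dcx (0.00347), Sox11 (0.00698), Cd24a (0.00799), Cemip2 (0.013), Dlx2 (0.0145), Cdon (0.0308), Cyp51 (0.0424) and Elavl2 (0.0488).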

How the results depend on the processing

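Across 32 alternatives, the count of called genes stayed within 1.5 times the 3156 of the comparison except when the sorts were pooled into 1 group (1588, 740 higher and 848 lower, 1585 with the same sign) and when the 3' to 5' ratio was a covariate (1665, 761 higher and 904 lower, 1547 with the same sign). Leaving out 1 array gave 2368 (without DIEC_GFP replicate 2) to 3172 called genes. Genes without overlap numbered 904 to 1410 then, 1613 without the SEZ_GFPprom sort and 1528 without the SEZ_Prom sort. Genes differing among the sorts numbered 1651 (without SEZ_Prom replicate 1) to 3145 with 1 array left out, 853 without the SEZ_GFPprom sort, 1608 without SEZ_Prom and 1831 without SEZ_CD24. The fit with the replicate number as a block called 2744 genes (1177 higher, 1567 lower, 2359 with the same sign, 2023 among the sorts). Whether the replicate numbers pair the arrays is not known. Fgfr2 and Lrig1 turned to 0.20 and 0.10 without shared-sequence probe sets, and Prom1 to -0.13 without the SEZ_GFPprom sort and without SEZ_CD24 replicate 2, the lowest of its values with 1 array left out, which reached 0.41 without SEZ_CD24 replicate 1. Of 162 called genes that met the naming rules, not all of them printed here, 102 kept their call in every setting that held them. A gene removed by a filter was not counted as lost in that setting. The cause of these changes was not tested.

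Limits are the 2 arrays of 3 sorts, 1 diencephalic sort by a single gate, differing RNA quality measures, and values at or near background, whose fold differences are reduced by the floor of 10.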

Other observations

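Further gene lists are read beside 6.94% higher and 7.70% lower among all genes. Of 18 interferon and antigen presentation genes 5 were lower in all sorts and none higher. The class II chains H2-Aa and H2-Ab1 were 6.74-fold and 3.73-fold lower than in DIEC_GFP and Ifit3, an interferon-induced gene, 2.46-fold lower, but without shared-sequence probe sets the count was 1 of the 9 members left. It was 8 of 18 without SEZ_CD24 replicate 1 and without the SEZ_CD24 sort. Of 27 extracellular matrix genes 3 were higher and 9 lower. Hapln2, a link protein of nodes of Ranvier, was 6.05-fold lower with 8.22 in SEZ_Prom against 8.55 ± 0.63 (SD, n = 4) in DIEC_GFP, and Sparcl1, a matricellular protein of astrocytes, was 4.81-fold lower. Of 18 retinoic acid genes 2 were higher and 4 lower, with the retinoid receptor Rxrg 5.11-fold higher and Rdh5, a retinol dehydrogenase, 4.87-fold lower. Of 23 EGF and FGF pathway genes 1 was higher and 4 lower, the latter 2 without DIEC_GFP replicate 4 or without SEZ_Prom replicate 1. None of 23 immediate early and stress genes was called by limma, 3 being higher at an unadjusted p under 0.05. Their median was 1.27 in SEZ_CD24 and -0.36 in SEZ_GFP.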
